A study of Mus musculus with 4 samples.

Results

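Heme was compared with its vehicle in marrow-derived cells labelled as lacking Bach1. Every gene was described by the difference in log2 signal between the array titled Bach1KO_Heme and the array titled Bach1KO_Vehicle, 2 of the 4 arrays of the series. The other pair, WT_Heme and WT_Vehicle, shares no array with it and is set beside it. Genes were read from probe sets with a single gene symbol, the brightest probe set standing for a gene, which gave 19938 genes. A gene was at level when the brighter array of the pair reached 30.96, the median of all values, as 10843 genes did. Higher and lower mean a difference of 2-fold or more at level, and other differences are given as values.

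All cells were bone marrow of mice on the B6 background, wild type or labelled as Bach1 knockout, and were grown for 6 days in IMDM with 10% fetal calf serum and 20 ng/ml GM-CSF. Heme was then added at 40 µM (the labels give the unit as µm), or its vehicle of 0.15 M NaCl with 10% NH4OH. Floating cells were discarded, and RNA came from the adherent cells 24 hours later. Each group held 1 array, so there is no replicate error, no p-value is given, and the spread between cultures is unknown. A bulk array also cannot tell fewer cells of a type from less RNA per cell.

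Heme is the iron-containing ring of hemoglobin and many enzymes, and free heme is an oxidant that macrophages meet when they clear red blood cells. Bach1 represses genes of heme breakdown and antioxidant defence by binding their Maf recognition elements with small Maf proteins, and leaves DNA when it binds heme. Other sensors can act on the same cells without Bach1: NRF2 (Nfe2l2) activates antioxidant genes under electrophile stress, NRF1 (Nfe2l1) activates proteasome genes when protein breakdown is impaired, and HSF1 activates chaperone genes.

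Median signals of the 4 arrays lay between 30.4 and 31.4. The robust SD of the log2 difference over genes was 0.28 in the labelled knockout pair and 0.28 in the wild-type pair. The Bach1 probe set read 211 in labelled knockout vehicle and 204 with heme, and 212 and 264 in wild type. Its signal did not separate the genotypes. The labels do not say where its probes lie relative to the deletion, so it checks nothing about genotype, and the labels were followed. The macrophage list gene Lyz2 read between 9990 and 10705 on all 4 arrays. Other genes of that list varied more: C1qc read 170 and 103 (wild type 911 and 295), and Marco 605 and 898 (wild type 115 and 342). Of 20 measured macrophage markers, Cd163 alone stayed below the level signal on all arrays.

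A small share of genes differed between heme and vehicle in the labelled knockout cells. Of 10843 genes at level, 130 (1.20%) were higher with heme and 49 (0.452%) lower, against 126 (1.17%) and 96 (0.891%) of 10772 in wild type. Either way these were 179 genes (1.65%) and 222 (2.06%). A difference above 0 of any size, with heme the brighter array, was found in 52.4% of genes at level in the labelled knockout pair, and one below 0 in 47.5%. A 4-fold difference was reached by 5 genes upward and 1 downward. With 32 added to each signal, which shrinks the folds of dim genes, 72 of the 130 and 35 of the 49 were under 2-fold, and the folds of genes named below that were so are given beside them. The higher genes were led by the NADPH-producing malic enzyme Me1, the myeloid receptor Treml4 and the ubiquitin hydrolase Uchl1, and they held 21 of the 31 measured proteasome subunits. The lower genes held enzymes of sterol synthesis, the metalloproteinases Mmp13 and Mmp27 and the IL-7 receptor. Genes that are known direct targets of Bach1 in heme breakdown and iron export were brighter in labelled knockout vehicle than in wild-type vehicle and differed by less than 2-fold with heme.

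Hmox1, the heme oxygenase that opens the heme ring, read 9047 in labelled knockout vehicle and 10330 with heme, a log2 difference of 0.19. In wild type it read 1827 and 9881 (2.44). The wild-type vehicle array was thus the only low one of the 4, and with heme the labelled knockout signal lay at percentile 99.96 of its array, near the top of the scale. Slc40a1, the iron exporter ferroportin, read 512 and 787 (0.62), and 52.7 and 290 in wild type (2.46). Both of its labelled knockout arrays were above both wild-type arrays. Slc48a1, which carries heme out of the phagolysosome, read 845 and 1242 (0.56), and 418 and 1113 in wild type (1.41). Here the wild-type heme array lay between the labelled knockout arrays.

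Spic, the transcription factor needed for red pulp macrophages of the spleen, did differ by 2-fold. It read 298 in labelled knockout vehicle and 679 with heme, 2.28-fold higher, and 17 and 429 in wild type (log2 differences 1.19 and 4.66). The wild-type vehicle array was far below the other 3, and both heme arrays were above both vehicle arrays. Vcam1, another red pulp macrophage marker, stayed below level at 13.5 and 12.3, and at 12.1 and 13.3 in wild type. Of 10 red pulp markers at level, Treml4 and Spic alone were higher, beside 1.20% of all genes. In wild type 4 of 9 at level were higher and 1 lower. The median log2 difference of the list was 0.15 (wild type -0.02).

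Downstream of heme oxygenase, Blvrb, a reductase that acts on biliverdin and flavins, read 461 and 1102 (2.39-fold higher) in the labelled knockout and 508 and 917 in wild type. Both heme arrays were above both vehicle arrays. It was the only one of 4 heme degradation genes that was higher, beside 1.20% of all genes. The list's median was -0.05 (wild type 0.28), with Hmox2 at -0.30 and Blvra at -0.30. Abcb6, a porphyrin transporter, read 25.3 and 58.0, and 27.8 and 28.3 in wild type. Its labelled knockout heme array stood alone above the other 3, and with 32 added its fold was 1.57. It was the only heme transport gene of 11 at level that was higher, beside 1.20% of all genes, and 1 was higher in wild type.

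Iron storage and heme synthesis moved little. None of 16 iron genes at level was higher or lower (median 0.03, wild type 0.08), and none of 8 heme biosynthesis genes was (median -0.08, wild type 0.08). The ferritin subunits Fth1 and Ftl1, which store iron, differed by 0.02 and 0.00 on the log2 scale, at signals of 9927 and 10032 for Fth1 and 8577 and 8578 for Ftl1. Tfrc, the transferrin receptor that brings iron in, read 55.5 and 30.2 in the labelled knockout and 72.8 and 33.6 in wild type (-0.88 and -1.11). Both heme arrays were below both vehicle arrays. Alas1, the first enzyme of heme synthesis, read 745 and 536, a difference of -0.47, and 633 and 627 in wild type (-0.01). Among 9 Bach, CNC and small Maf factors at level none was higher or lower, with Nfe2l2 at 1087 and 1132 and Nfe2l1 at 263 and 324.

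**Figure D1:**
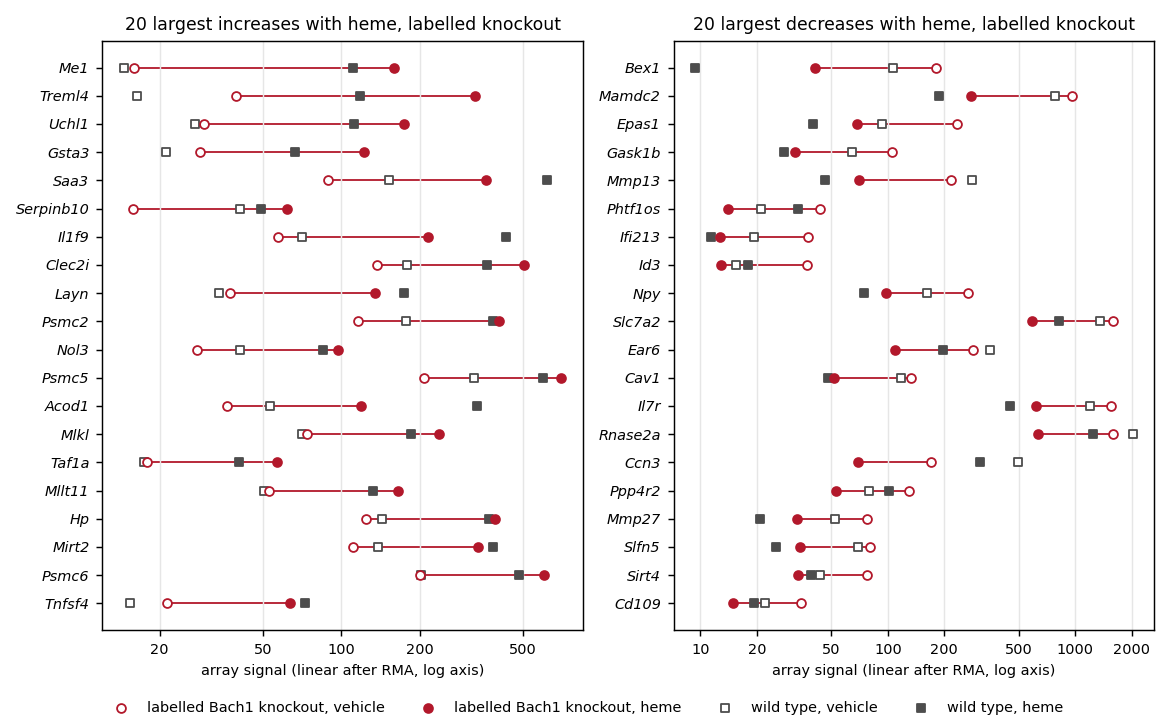
Signal on each of the 4 arrays, on a log axis, for the 20 named genes with the largest increase and the 20 with the largest decrease with heme in the labelled knockout pair. Each point is 1 array and there are no error bars. Me1 goes from 15.9 to 160 and Treml4 from 39.3 to 328, and the wild-type points of most genes move the same way, with Id3 and Ppp4r2 among the exceptions.

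The antioxidant genes gave the largest single difference. Me1, which makes NADPH in the cytosol, read 15.9 in labelled knockout vehicle and 160 with heme (10.0-fold), and 14.6 and 111 in wild type. Nqo1, a quinone reductase that uses NADPH, read 14.8 and 41.7, and 18.7 and 69.0 in wild type. In both genes the vehicle arrays lay below the level signal and the heme arrays above it, so the fold depends on dim values: with 32 added to each signal it was 4.01 for Me1 and 1.58 for Nqo1. Sod2, the mitochondrial superoxide dismutase, read 96.5 and 239 (wild type 153 and 324). Cat, catalase, read 447 and 942 (wild type 385 and 724). With these 4 genes higher of 20 at level, none lower and 17 of the 20 above 0, the list of NADPH, quinone and thioredoxin enzymes had a median of 0.54 (wild type 0.40 with 4 higher). Of all genes at level 1.20% were higher and 52.4% above 0, with a median of 0.02. The sulfiredoxin Srxn1 (0.82) and the thioredoxin reductase Txnrd1 (0.68) were under 2-fold, and thioredoxin itself, Txn1, was at -0.00.

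Glutathione genes showed the same pattern of a few members at 2-fold. Gclm, the modifier subunit of glutamate-cysteine ligase, read 326 and 820 in the labelled knockout (2.51-fold) and 188 and 777 in wild type. Gclc, the catalytic subunit, read 54.1 and 119 (wild type 54.1 and 105), 1.76-fold with 32 added. Gsta3, a glutathione transferase, read 28.6 and 122 (wild type 21.1 and 66.5), with its vehicle arrays below level. In all 3 genes both heme arrays were above both vehicle arrays. Abcc1, which exports glutathione conjugates, read 170 and 430 (wild type 145 and 467). Slc3a2, the shared heavy chain of amino acid transporters, read 578 and 1211 (wild type 756 and 1056). These 5 were the higher genes of 28 at level, none was lower, and 26 of the 28 at level were above 0 (median 0.34, wild type 0.37 with 8 higher and 1 lower). Of all genes at level 1.20% were higher and 52.4% were above 0. Slc7a11, the cystine transporter that feeds glutathione synthesis, read 222 and 381 (0.78), and 277 and 799 in wild type (1.53). The extracellular peroxidase Gpx3 went the other way at 373 and 213 (-0.81), and 355 and 128 in wild type (-1.47).

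The promoters of 5 higher genes are shown because each holds 1 match to TGACNNNGC, the core of the antioxidant response element that CNC and Bach proteins share with small Maf proteins. Each window runs from 250 bases before the transcription start to 50 after it, 5′ to 3′ on the strand of the gene, as RefSeq gives it for GRCm38.p6. Me1 has 2 windows, and 1 that holds the match is shown. Capitals mark the match.
Me1 chr9:86695865-86696164 (- strand): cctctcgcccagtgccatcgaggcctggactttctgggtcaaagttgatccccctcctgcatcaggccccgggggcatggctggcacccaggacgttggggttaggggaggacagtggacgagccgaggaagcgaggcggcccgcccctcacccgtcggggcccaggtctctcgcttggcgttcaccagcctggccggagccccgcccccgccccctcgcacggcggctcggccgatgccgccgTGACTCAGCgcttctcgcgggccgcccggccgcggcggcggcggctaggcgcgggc
Gsta3 chr1:21240335-21240634 (+ strand): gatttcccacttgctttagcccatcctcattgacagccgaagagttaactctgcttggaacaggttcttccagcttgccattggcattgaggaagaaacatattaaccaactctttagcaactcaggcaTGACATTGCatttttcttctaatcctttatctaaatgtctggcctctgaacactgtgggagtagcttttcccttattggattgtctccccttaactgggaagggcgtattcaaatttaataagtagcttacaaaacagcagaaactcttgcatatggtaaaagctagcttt
Gclm chr3:122245307-122245606 (+ strand): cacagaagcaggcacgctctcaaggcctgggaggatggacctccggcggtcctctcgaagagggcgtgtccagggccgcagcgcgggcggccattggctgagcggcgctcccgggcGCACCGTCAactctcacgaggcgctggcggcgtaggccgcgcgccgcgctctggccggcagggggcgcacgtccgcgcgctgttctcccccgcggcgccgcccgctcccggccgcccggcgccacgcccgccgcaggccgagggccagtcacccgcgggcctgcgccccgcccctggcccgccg
Psmc6 chr14:45329574-45329873 (+ strand): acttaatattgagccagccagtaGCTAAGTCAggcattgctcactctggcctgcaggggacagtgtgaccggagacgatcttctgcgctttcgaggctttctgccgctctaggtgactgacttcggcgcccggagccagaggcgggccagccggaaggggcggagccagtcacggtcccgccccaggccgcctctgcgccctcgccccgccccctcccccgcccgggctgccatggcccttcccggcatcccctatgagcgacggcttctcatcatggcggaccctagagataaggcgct
Psmd12 chr11:107479278-107479577 (+ strand): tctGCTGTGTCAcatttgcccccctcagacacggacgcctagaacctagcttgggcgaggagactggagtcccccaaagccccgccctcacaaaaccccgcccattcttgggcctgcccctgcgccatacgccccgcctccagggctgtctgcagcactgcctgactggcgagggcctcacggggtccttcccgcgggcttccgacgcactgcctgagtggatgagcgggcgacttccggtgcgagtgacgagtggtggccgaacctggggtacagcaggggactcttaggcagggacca

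The match in Me1 also reads TGANTCA, the AP-1 site at the core of the Maf recognition element. Matches were searched on both strands and counted per gene, a gene counting when any of its promoter windows matched. TGACNNNGC was found for 14.0% of 27025 genes in the table and for 16.9% of the 8724 genes at level with a promoter there. All shares of promoters given here are counted per gene in this way. Of the 130 higher genes, 102 had a promoter in the table and 16 of these (15.7%) held the match, a share close to that of all genes at level. The same count was 6 of 35 (17.1%) for the lower genes. Over the glutathione and NADPH lists together, 13 of 46 promoters (28.3%) held it, and over the genes higher in both genotypes 8 of 36 (22.2%). TGANTCA was found in 7 of 102 promoters of the higher genes (6.86%) and in 6.32% of those at level. These are matches of letters in a short window and show no binding.

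Proteasome genes held the largest share of higher genes among the lists. The proteasome is the barrel-shaped protease that breaks down ubiquitin-tagged proteins, built of a 20S core that cuts and a 19S cap that binds, unfolds and feeds in the substrate. Of 31 measured subunits, all at level, 21 (67.7%) were higher with heme in the labelled knockout pair, beside 1.20% of all genes, and 8 were higher in wild type. All 31 were above 0 in the labelled knockout pair and 30 in wild type. The median log2 difference was 1.16 (range 0.04 to 1.81), against 0.82 in wild type. In 30 of the 31 both heme arrays were above both vehicle arrays.

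Subunits of the 19S cap had the largest differences. Psmc2, an ATPase of the ring that unfolds substrates, read 116 and 406 in the labelled knockout and 178 and 383 in wild type. Psmc5, of the same ring, read 209 and 701 (wild type 324 and 598). Psmc6, also of that ring, read 201 and 601 (wild type 202 and 481). In each of these the heme array of the labelled knockout was the highest of the 4. The ubiquitin receptor Psmd4 read 281 and 727 (wild type 280 and 592), and the lid subunit Psmd12 read 272 and 668 (wild type 312 and 571). Of 17 cap genes 13 were higher, with a median of 1.19 (wild type 0.88, with 7 higher). Psmd8 was the exception at 1561 and 1607 (0.04), and 1748 and 1745 in wild type, the 1 subunit whose arrays did not separate by heme.

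In the 20S core, 8 of 14 genes were higher (median 1.08, range 0.80 to 1.55), against 1 in wild type (median 0.67). Psma5, of the outer gate-forming ring, read 680 and 1994 in the labelled knockout and 600 and 1818 in wild type. It was also the core gene that was higher in wild type. Psmb7, a catalytic subunit, read 225 and 624 (wild type 317 and 503). Psmb5, the chymotrypsin-like catalytic subunit, was the lowest of the core at 723 and 1255 (wild type 636 and 1139). The other subunits and regulators did not share this: none of 12 immunoproteasome, activator and assembly genes at level was higher, with a median of 0.11 (wild type 0.03). The interferon-induced catalytic subunit Psmb8 read 232 and 224, Psmb9 read 544 and 649, and the assembly factor Pomp, the largest of the list, read 617 and 1158 (0.91).

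At the proteasome genes the labelled knockout arrays differed from the wild-type arrays both in vehicle and with heme. The labelled knockout vehicle array was below the wild-type vehicle array in 24 of 31 subunits, and its heme array above the wild-type heme array in 28. The log2 response of the labelled knockout pair exceeded that of wild type in 27. The median difference between genotypes was -0.16 in vehicle and 0.16 with heme, where it was -0.01 and 0.02 over all genes at level. Subunits read on the same array are not replicates. Whether the vehicle levels, the heme levels or the responses differ by genotype could not be tested with 1 array a group.

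**Figure D2:**
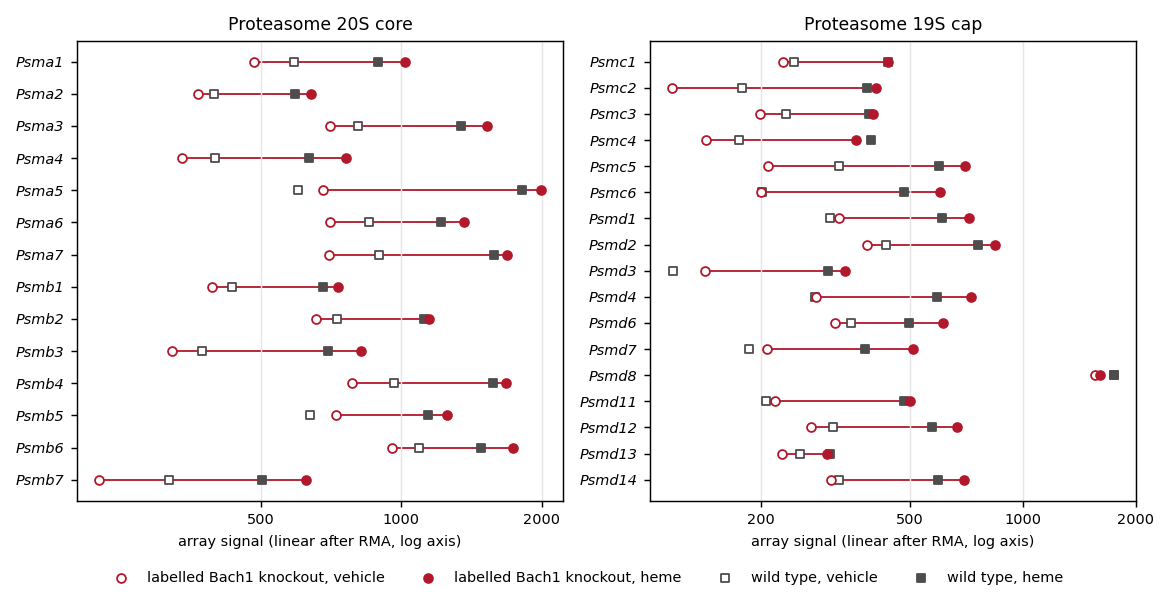
Signal of each measured 20S core and 19S cap subunit on the 4 arrays, on a log axis, each point being 1 array. Both heme arrays lie above both vehicle arrays in 30 of the 31 subunits, and Psmd8 is the exception.

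Of the proteasome genes, 25 had a promoter in the RefSeq table, and 4 of these (16%) held TGACNNNGC, near the 16.9% of genes at level. Psmc6 and Psmd12 are among them, and in both the match lies far upstream in the window, at base 24 and base 4 counted from its 5′ end. CCAAT, the NF-Y box, was in 10 of the 25 (40.0%) and in 41.9% of genes at level.

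Several genes that work with the proteasome were higher too. Psmd5, a chaperone that assembles the cap, read 69.4 and 166 (wild type 71.2 and 164), 1.95-fold with 32 added. Sqstm1, the p62 adaptor that carries ubiquitin-tagged proteins to autophagy, read 399 and 1007 (wild type 345 and 1028). It was the only higher gene of 23 in the autophagy list, beside 1.20% of all genes. The median of that list was 0.05 (wild type 0.02). Cops5, the protease subunit of the COP9 signalosome, read 266 and 597, and Ide, insulin-degrading enzyme, read 112 and 300. The p97 segregase pulls ubiquitin-tagged proteins out of membranes and complexes, and its list of 13 genes was chosen after the values were seen. Its adaptors Ubxn4 (268 and 632), Nploc4 (140 and 306), Plaa (309 and 644) and Nsfl1c (216 and 442) were higher, 4 of 13 beside 1.20% of all genes, and 12 of 13 were above 0 (median 0.64, wild type 0.50 with none higher). With 32 added the folds of Nploc4, Plaa and Nsfl1c were 1.97, 1.98 and 1.91. Vcp, p97 itself, read 317 and 598 (0.92), and 386 and 536 in wild type (0.47). Uchl1, a hydrolase that frees ubiquitin, read 29.6 and 174, and 27.4 and 112 in wild type. Both of its vehicle arrays lay below level, and its 5.88-fold difference was 3.35-fold with 32 added.

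The heat shock list and the endoplasmic reticulum chaperone list shifted in opposite directions. Of 20 heat shock list genes at level, 2 were higher, beside 1.20% of all genes, and none lower, and 16 of the 20 were above 0 (median 0.16, wild type 0.17 with 1 higher). Hsf2, a heat shock transcription factor, read 88.9 and 197 (wild type 123 and 179). Dnajb4, an HSP40 co-chaperone, read 128 and 280 (wild type 105 and 228). With 32 added neither was at 2-fold (1.89 for Hsf2 and 1.94 for Dnajb4). Hsph1, an HSP110 chaperone, read 93.2 and 180 (0.95), with wild type at 84.4 and 131. The strongly inducible Hspa1a was dim and differed little, at 33.7 and 45.3. Of 19 endoplasmic reticulum chaperones none was higher or lower, but 15 were below 0 (median -0.35, wild type -0.33), and in 12 both heme arrays were below both vehicle arrays. Calr, the lectin chaperone calreticulin, read 1121 and 604 (-0.89), and 1169 and 665 in wild type. Pdia6, a disulfide isomerase, read 362 and 208 (-0.80), and Hspa5, the chaperone BiP, 742 and 583 (-0.35).

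A promoter window of Hsph1, which has 2, is shown for its match to GAANNTTC, a pair of the units that make up a heat shock element, in capitals. The match begins at base 292 counted from the 5′ end of the window, in the part after the transcription start.
Hsph1 chr5:149636287-149636586 (- strand): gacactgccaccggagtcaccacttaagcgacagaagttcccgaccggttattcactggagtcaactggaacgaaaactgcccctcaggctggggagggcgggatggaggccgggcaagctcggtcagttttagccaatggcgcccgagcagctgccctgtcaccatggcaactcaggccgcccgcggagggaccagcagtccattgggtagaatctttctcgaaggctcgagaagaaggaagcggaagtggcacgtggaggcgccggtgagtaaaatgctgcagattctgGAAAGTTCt

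That motif, searched on both strands, was in 11 of the 20 heat shock list promoters in the table (55.0%) and in 6.81% of those of genes at level. Among promoters of all higher genes it was in 6 of 102 (5.88%).

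In the amino acid stress list controlled by ATF4, 2 of 25 genes at level were higher, beside 1.20% of all genes (median 0.21, wild type 0.13 with 1 higher). Mthfd2, a mitochondrial folate enzyme, read 30.5 in labelled knockout vehicle and 78.7 with heme, and 90.6 and 77.9 in wild type. Its labelled knockout vehicle array alone was low, and with 32 added its fold was 1.77. Slc3a2, given above, was the other. TGATGNAA, the core of the element that ATF4 binds with C/EBP proteins, was in 8 of 27 promoters of the list (29.6%), in 2.73% at level and in 1 of 102 (0.980%) of the higher genes.

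The sterol list held more lower genes than any other list. Cells make cholesterol from acetyl-CoA through the mevalonate pathway, under the transcription factor SREBP2. Of 20 measured sterol synthesis and uptake genes, 4 were lower in the labelled knockout pair, against 0.452% of all genes, and none in wild type. Of the 20, 18 were below 0 (median -0.53, wild type -0.49), and in 15 both heme arrays were below both vehicle arrays. Fdps, farnesyl diphosphate synthase, read 169 and 74.0 (wild type 163 and 116). Idi1, the isomerase one step before it, read 96.0 and 44.5 (wild type 145 and 84.6). Cyp51, the lanosterol demethylase and itself a heme enzyme, read 219 and 104 (wild type 293 and 179). Hsd17b7 read 83.1 and 41.4 (wild type 102 and 78.5). In all 4 the labelled knockout heme array was the lowest of the 4 arrays. With 32 added to each signal their folds were 1.90, 1.67, 1.85 and 1.57, all under 2. Hmgcs1, at the entry of the pathway, read 393 and 203 (-0.96), and SREBP2's own gene Srebf2 differed by -0.52. Fatty acid synthesis and LXR target lists had medians of -0.08 and -0.12 (wild type 0.04 and -0.18). No gene of either was at 2-fold in the labelled knockout pair, and 1 LXR target was lower in wild type, Apoe.

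Promoters of Idi1 and Hsd17b7 are shown for their matches to CCAAT, the NF-Y box that accompanies many sterol-regulated promoters, in capitals (2 in Idi1 and 3 in Hsd17b7, on either strand).
Idi1 chr13:8885356-8885655 (+ strand): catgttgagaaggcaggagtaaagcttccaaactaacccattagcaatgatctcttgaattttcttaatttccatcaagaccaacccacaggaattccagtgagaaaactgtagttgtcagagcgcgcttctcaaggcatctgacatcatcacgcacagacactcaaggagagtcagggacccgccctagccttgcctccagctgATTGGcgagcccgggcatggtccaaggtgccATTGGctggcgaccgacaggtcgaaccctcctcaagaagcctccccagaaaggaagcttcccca
Hsd17b7 chr1:169969156-169969455 (- strand): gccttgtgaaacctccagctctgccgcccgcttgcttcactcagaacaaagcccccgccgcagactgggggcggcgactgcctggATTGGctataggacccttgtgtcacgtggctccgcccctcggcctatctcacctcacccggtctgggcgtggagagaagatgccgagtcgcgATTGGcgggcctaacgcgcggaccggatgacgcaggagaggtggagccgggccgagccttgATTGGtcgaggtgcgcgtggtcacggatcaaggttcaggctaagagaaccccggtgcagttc

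All 16 sterol list promoters in the table (100%) held CCAAT, against 41.9% of promoters of genes at level and 45.1% of those of higher genes. TCACNCCAC, a form of the sterol regulatory element, was in 1 of the 16 (6.25%) and in 1.36% at level.

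**Figure D3:**
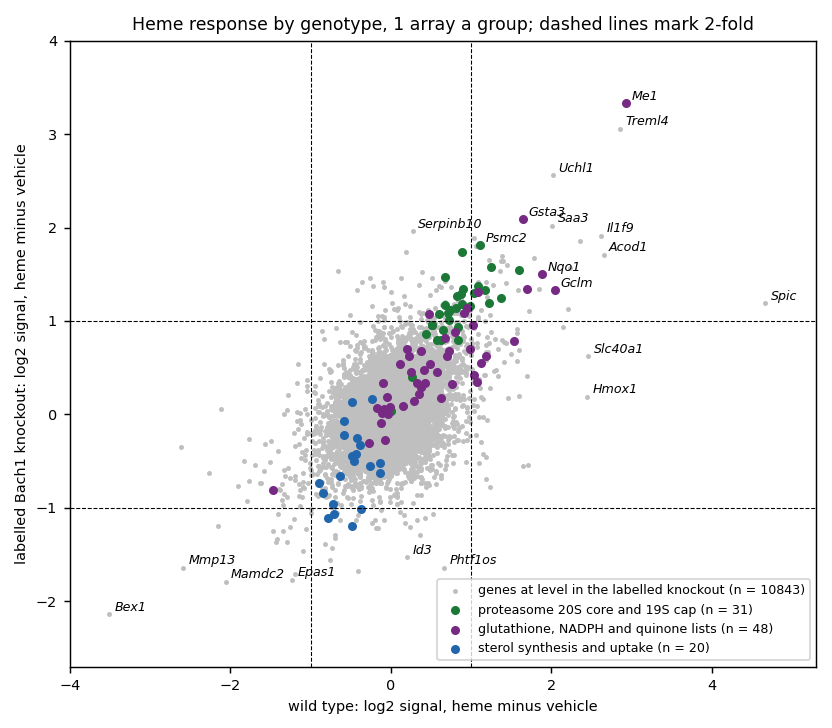
Log2 difference of heme over vehicle in the labelled knockout pair (y) against the wild-type pair (x) for the 10843 genes at level in the former, with dashed lines at 2-fold. Proteasome genes lie toward the top, most of them to the left of the upper wild-type 2-fold line, and most sterol genes lie below 0 on the y axis.

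A few inflammatory genes were higher. Saa3, an acute-phase protein made by macrophages, read 88.8 and 359 in the labelled knockout and 153 and 616 in wild type. Il1f9, the cytokine IL-36 gamma, read 57.3 and 215 (wild type 70.5 and 432). Acod1, which makes itaconate, read 36.4 and 119 (wild type 53.2 and 334). In all 3 both heme arrays were above both vehicle arrays, and the wild-type heme array was the highest. Il1b, interleukin-1 beta, read 149 and 324 (wild type 261 and 514), and Casp1, the protease that matures it, 253 and 589 (wild type 269 and 476). With 32 added Il1b was at 1.96-fold. Of IL-1 family genes 3 of 10 at level were higher, beside 1.20% of all genes, and 1 was in wild type (median 0.16, wild type 0.35). Of other cytokine and acute-phase genes 4 of 14 at level were higher, beside 1.20% of all genes, and 5 in wild type. The median of that list was 0.01 over 25 measured members (wild type 0.15) and 0.17 over the 14 at level. The 4 were Saa3, Acod1 and the TNF family ligands Tnfsf4 (21.4 and 63.4, wild type 15.4 and 72.3) and Tnfsf9 (20.6 and 52.9, wild type 42.3 and 65.1). With 32 added, the folds of these ligands were 1.79 and 1.61.

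The neutrophil-attracting chemokine Cxcl3 read 44.3 and 96.7 in the labelled knockout, 1.69-fold with 32 added, and 52.0 and 240 in wild type. It was the only CXC list gene of 9 at level that was higher, beside 1.20% of all genes, and 3 were in wild type. Cxcl2 read 320 and 613 (0.94), and 229 and 1007 in wild type (2.14). For both, the wild-type heme array was the highest of the 4. Il6 stayed below level in the labelled knockout, at 6.15 and 25.3, and read 7.77 and 124 in wild type. Among CC chemokines none of 13 at level was higher or lower (median -0.11, wild type -0.08). Mlkl, the executor of necroptosis, read 73.7 and 238 (wild type 70.5 and 185), and Hp, haptoglobin, which binds free hemoglobin, 125 and 390 (wild type 143 and 370). Both were among the 20 largest increases.

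The remaining large increases were of mixed function. Treml4, a receptor of myeloid cells that binds dead cells, read 39.3 and 328 (wild type 16.4 and 118), 8.33-fold higher, or 5.04-fold with 32 added. Its labelled knockout heme array stood 2-fold above all others. Clec2i, a C-type lectin, read 137 and 506 (wild type 179 and 365), and the hyaluronan-binding lectin Layn 37.3 and 135 (wild type 34.0 and 174). Nol3, an inhibitor of apoptosis, read 27.8 and 96.8 (wild type 40.7 and 85.1). Mllt11 read 52.8 and 165 (wild type 50.5 and 133), Taf1a, of the RNA polymerase I machinery, 17.9 and 56.5 (wild type 17.4 and 40.5, 1.77-fold with 32 added), and the long noncoding RNA Mirt2 111 and 337 (wild type 139 and 382). Serpinb10, a serine protease inhibitor, read 15.8 and 61.6, against 40.7 and 49.1 in wild type, so that its labelled knockout vehicle array alone was low, and with 32 added its fold was 1.96. Of the 20 largest increases, 18 were also higher in wild type, all but Serpinb10 and Psmc5. With 32 added, 9 of the 20 folds were over 1.5 times smaller and 17 stayed at 2-fold.

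The largest decrease was that of Bex1, a small adaptor protein best known from neurons, at 181 and 41.1 in the labelled knockout and 107 and 9.41 in wild type. Mamdc2, a MAM domain protein, read 966 and 279 (wild type 777 and 187). Epas1, the hypoxia-inducible factor HIF-2 alpha, read 233 and 68.2 (wild type 93.4 and 39.8). In all 3 both heme arrays were below both vehicle arrays, and for Epas1 the labelled knockout vehicle array stood 2-fold above all others. The collagenase Mmp13 read 218 and 70.0 (wild type 280 and 46.4), and the metalloproteinase Mmp27 77.6 and 32.7 (wild type 52.3 and 20.7, 1.70-fold with 32 added). In contrast the membrane-bound Mmp14 was higher, at 78.3 and 160 (1.74-fold with 32 added), while wild type read 245 and 357. The IL-7 receptor gene Il7r read 1543 and 614 (wild type 1200 and 449), the neuropeptide gene Npy 269 and 98.0 (wild type 161 and 74.8), and the caveolae protein gene Cav1 133 and 51.4 (wild type 118 and 48.0, 1.98-fold with 32 added). Slc7a2, which imports arginine, read 1583 and 586 (wild type 1361 and 819).

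Ear6 and Rnase2a, secreted ribonucleases of the eosinophil-associated family, read 286 and 109, and 1586 and 634 (wild type 350 and 198, and 2022 and 1241). Members of this family are near-identical copies whose probes can share signal. Ccn3, a matricellular growth regulator, read 171 and 69.7 in the labelled knockout, both below the wild-type values of 498 and 309. With 32 added its difference was just under 2-fold. Gask1b read 105 and 32 (wild type 64.1 and 27.9), Slfn5, of the interferon-linked Schlafen family, 80.6 and 33.9 (wild type 69.7 and 25.2), and Ifi213 37.5 and 12.7 (wild type 19.3 and 11.4). Further genes among the 20 largest decreases were not at 2-fold in wild type. The mitochondrial sirtuin Sirt4 read 77.0 and 33.1 (wild type 43.5 and 39.0), Cd109, a TGF-beta co-receptor, 34.6 and 14.9 (wild type 22 and 19.4), Id3, an inhibitor of basic helix-loop-helix factors, 37.2 and 12.9 (wild type 15.5 and 17.9), and the phosphatase subunit Ppp4r2 130 and 53.2 (wild type 79.3 and 101). For these 4 and the antisense transcript Phtf1os (43.6 and 14.0, wild type 21.0 and 33.2), the labelled knockout vehicle array was the highest of the 4. Of the 20 largest decreases 10 were also lower in wild type, and with 32 added 10 stayed at 2-fold. The folds were then 1.56 for Ifi213, 1.71 for Slfn5, 1.67 for Sirt4, 1.42 for Cd109, 1.54 for Id3, 1.90 for Ppp4r2 and 1.64 for Phtf1os.

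The called genes were then read in the wild-type pair. Of the 130 higher genes, 44 were also higher in wild type (33.8% of these and 34.9% of the wild-type list), and 116 (89.2%) were above 0 there, with a wild-type median of 0.82 beside 1.23 in the labelled knockout. Of the 49 lower genes, 16 were also lower in wild type (32.7% and 16.7%), and 39 (79.6%) were below 0 there, with medians of -0.69 and -1.21. No gene was 2-fold in opposite directions. Both heme arrays were above both vehicle arrays in 109 of the 130 (83.8%), against 21.6% of all genes at level, and below both in 35 of the 49 (71.4%), against 19.8%. The choice of genes by the labelled knockout pair fixes part of these shares and makes its own medians the larger ones. The 82 genes higher in wild type alone had a median of 0.47 in the labelled knockout, and the 80 lower in wild type alone one of -0.48. Over the 10460 genes at level in both, the responses correlated with r = 0.46 and rho = 0.34, across genes that are not independent.

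In some of the called genes 1 array stood apart from the 3 others. In 16 of the 130 higher genes (12.3%) the labelled knockout vehicle array stood 2-fold below all 3 others. Among these were Serpinb10, Mthfd2, Tnfsf9, Mmp14, Serpinb2, Trem1, Gpr65, Tnip3 and Lpcat2, with Serpinb2 (1.60), Trem1 (1.67) and Lpcat2 (1.96) also under 2-fold with 32 added. In 5 (3.85%) the labelled knockout heme array stood 2-fold above all others, namely Treml4, Abcb6, Niban1 and the microRNA genes Mir202 and Mir103-2, the last 3 of them under 2-fold with 32 added (1.83, 1.49 and 1.78). Among the lower genes, 4 had the labelled knockout vehicle array alone high (Epas1, Id3, Gpha2 and Mir133a-1), and 4 the heme array alone low (Tnfsf8, Gal, Ccn3 and AI504432). Besides Id3 and Ccn3, given above, Gpha2 (1.61), Mir133a-1 (1.42), Tnfsf8 (1.53) and Gal (1.90) were under 2-fold with 32 added. Of the genes named in this paragraph, Treml4 was also higher in wild type (16.4 and 118). Epas1 (93.4 and 39.8) and AI504432 (523 and 250) were also lower there. Whether the arrays that stood apart reflect genotype or 1 culture cannot be told apart with 1 array a group.

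**Figure D4:**
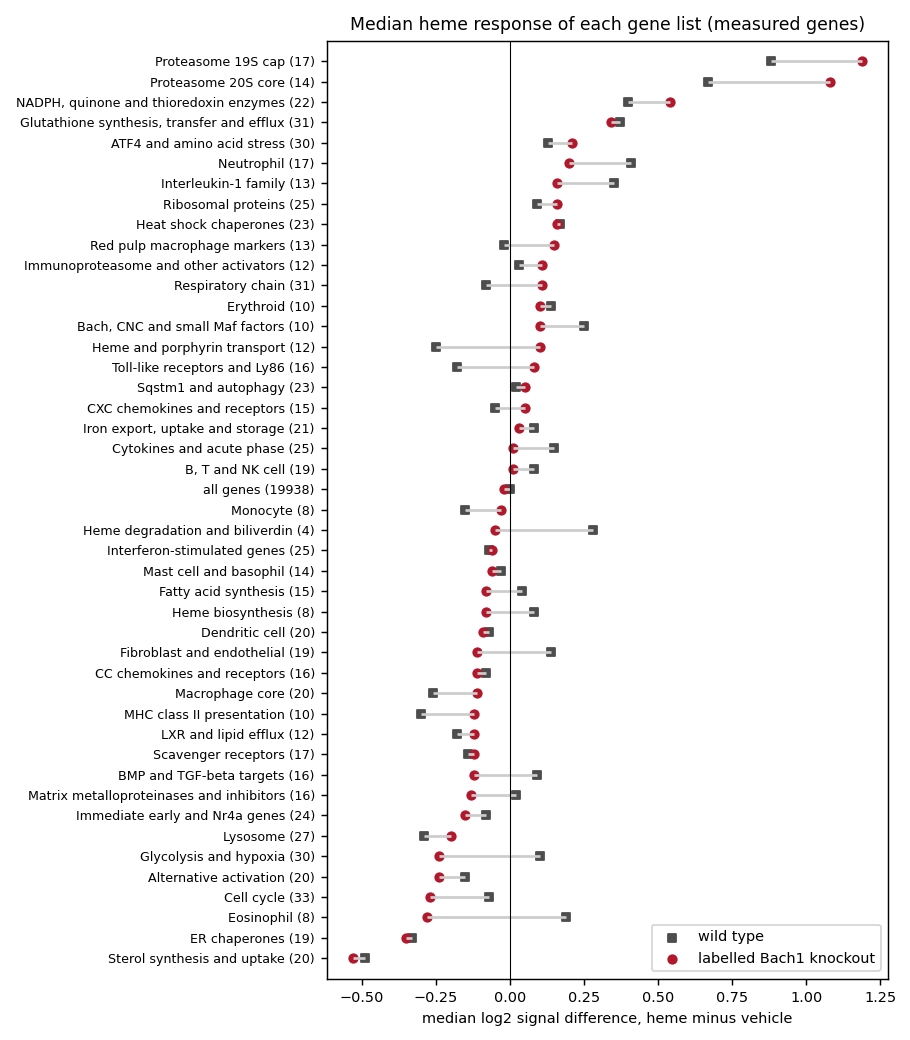
Median log2 difference of heme over vehicle for each of the 44 gene lists and for all genes, in the labelled knockout pair and the wild-type pair. The 19S cap (1.19) and 20S core (1.08) lie highest and sterol synthesis (-0.53) lowest in the labelled knockout pair.

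Other lists had few or no members at 2-fold and shifts smaller than the proteasome and sterol lists. Cell cycle genes had a median of -0.27 (wild type -0.07), with 26 of 33 below 0 and both heme arrays below both vehicle arrays in 16. Lysosome genes had a median of -0.20 (wild type -0.29), with 21 of 27 below 0 and that order of arrays in 16. The median of glycolysis and hypoxia genes was -0.24 (wild type 0.10), with 20 of 29 below 0 and Epas1 the 1 lower. It was -0.24 for alternative activation genes (wild type -0.15), -0.12 for MHC class II genes (wild type -0.30) and -0.06 for interferon-induced genes (wild type -0.07). Ribosomal protein genes stood at 0.16 (wild type 0.09), with all 25 above 0 and both heme arrays above both vehicle arrays in 15, and respiratory chain genes at 0.11 (wild type -0.08). Arg1, the arginase of alternatively activated macrophages, read 2778 and 1434 (-0.95), and 1362 and 857 in wild type. Tgfbr1, a TGF-beta receptor, read 796 and 396 (-1.01, or 1.93-fold lower with 32 added), and 601 and 303 in wild type (-0.99).

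Markers of cell types were read beside these groups. Neutrophil markers had a median of 0.20 (wild type 0.41), with 13 of 15 members at level above 0 and none at 2-fold. In wild type 5 of 14 at level were higher, beside 1.17% of all genes there. Their summed signal over 17 members was 9664 in vehicle and 12384 with heme, and 11437 and 15204 in wild type. The 20 macrophage markers summed to 29741 and 28870 (wild type 30290 and 26706), with a median of -0.11 (wild type -0.26) and none at 2-fold. In wild type 5 of 19 at level were lower and 1 higher, beside 0.891% and 1.17% of all genes there. The 20 dendritic cell markers summed to 3908 and 3331 (wild type 6501 and 5864). Of the 20, 14 were at level in the labelled knockout pair and 15 in wild type. Below level on all 4 arrays were 5 (Flt3, Zbtb46, Dpp4, Xcr1 and Cd209a). Cd1d1 alone of the 14 was higher, beside 1.20% of all genes, at 96.7 and 253 (wild type 86.1 and 208). The 8 monocyte markers summed to 11340 and 10062 (wild type 11403 and 9771). Of these 8, all at level, 2 were higher, beside 1.20% of all genes, and 1 was in wild type. Plac8 read 20.8 and 45.3 (wild type 36.7 and 38.4), and Vcan 169 and 348 (wild type 176 and 373). With 32 added their folds were 1.46 and 1.88. Of 19 lymphocyte markers 16 were below level on all arrays, of 14 mast cell and basophil markers 13, of 10 erythroid markers 6, among them Gata1 and Klf1, and of 19 fibroblast and endothelial markers 10. The part of the neutrophil marker difference in the inflammatory gene results was not tested.

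At the edge of the level filter, the dimmest genes inside were Fbxo40 (30.96), Rgs12 (31) and Zfp61 (31.01), none of them at 2-fold, and Zfp58, Slc12a3 and Myrip lay just outside at 30.94. Below the filter 17 genes were 2-fold brighter with heme and 16 dimmer. Of the genes called, the dimmer array lay below the level signal in 32 of the 130 and 15 of the 49, where a fold is least certain.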

How the data were processed

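Total RNA of 4 samples was hybridised to mouse whole-transcript arrays. The values the authors deposited are linear intensity after RMA (background correction, quantile normalization and probe summary), per the submitters' processing notes, with no version given there. No depth exists for arrays, and their number, 1 a group, limits the precision. The series' design text describes sorted progenitors, which the sample labels do not, and the sample labels were followed. No array was rescaled.

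Signals were taken to log2 and subtracted, heme minus vehicle. Of 35556 probe sets, 21789 carried 1 symbol, 1621 several and 12146 were not in the annotation used here. Of those with 1 symbol, 21698 matched the RefSeq gene table of GRCm38.p6 by Entrez number. The brightest probe set stood for a gene. No genome build came with the values, and promoters come from RefSeq's GRCm38.p6 by symbol.

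The members, the 44 lists and the motifs were chosen with earlier results of these data known. Lists were described by counts and by the median over measured members, 31 of 32 for the proteasome. The genes named were Bach1, Spic, Hmox1, Slc40a1 and Vcam1, the 20 largest increases and 20 largest decreases with a plain gene name, the 12 each way with the largest smaller response in both genotypes, and members of lists at 2-fold or, where none was, the 3 largest. Not all of these are printed. Other members of lists, Psmd5, Cops5, Ide, Mlkl, Hp, the genes with 1 array standing apart and the p97 list were chosen after their values were seen.

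Alternatives were folds of 1.5 and 3, no level filter, a level at the 75th percentile (106), quantile normalization again, lowess centring, 32 added to each signal and the mean of probe sets. The work ran in Python 3.11.15 with pandas 2.3.3, numpy 2.4.6, matplotlib 3.10.9 and statsmodels 0.14.6.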

Additional observations from a re-analysis of the deposited data

Results flagged for a closer look

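Among the 20 largest increases and the 20 largest decreases, 3 genes went opposite ways in the genotypes, a difference that was not tested: Phtf1os was at -1.64 in the labelled knockout pair and 0.66 in wild type, Id3 at -1.53 and 0.20, and Ppp4r2 at -1.29 and 0.36. The medians of 13 of the 44 lists had opposite signs, again not tested, and in 3 of these both medians were at least 0.1 from 0 before rounding. Glycolysis and hypoxia genes were at -0.24 and 0.10, eosinophil markers at -0.28 and 0.19, and fibroblast and endothelial markers at -0.11 and 0.14. Of 6 eosinophil markers at level none was above 0 in the labelled knockout pair, and 7 of 19 fibroblast and endothelial markers were at level.

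Probe sets left out of the gene counts were read in the same way. Of 922 at level with several symbols, 6 (0.651%) were higher with heme in the labelled knockout pair and 2 (0.217%) lower. Of 5904 at level that the annotation did not list, 435 (7.37%) were higher and 244 (4.13%) lower, larger shares than the 1.20% and 0.452% of named genes. Of those 435, 83 were also higher in wild type.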

How the results depend on the processing

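No paired analysis was possible because each group held 1 array, and no array could be left out. The 130 higher and 49 lower genes became 545 and 333 at 1.5-fold and 20 and 7 at 3-fold. The 44 higher and 16 lower in both genotypes became 200 and 110, and 9 and 3. With 32 added to each signal, which shrinks folds of dim genes, the counts were 58 and 14 in the labelled knockout pair and 23 and 6 in both genotypes. At the 75th percentile level, which keeps fewer genes, the lower genes were 24, and 9 in both genotypes. Other counts were within 1.5 times. Of the 130, 121 stayed higher under quantile normalization again and 124 under lowess centring, and 48 and 48 of the 49 stayed lower. With 32 added, list medians moved for NADPH, quinone and thioredoxin enzymes (0.40), the 19S cap (1.08) and sterol genes (-0.43), and 43 of 150 gene values moved. Of 43 lists, 15 moved when only members at the 75th percentile level were kept. A gene value counted as moved from a log2 change of 0.28 and a list median from 0.1. By these limits none moved under quantile normalization, lowess centring or the mean of probe sets. No gene at 2-fold and no list median of at least 0.2 in size changed sign. Of values nearer 0, 3 did: Toll-like receptors (0.08 to -0.02) and lymphocyte markers (0.01 to -1.33, 1 gene left) at the 75th percentile level, and Tal1 (0.02 to -0.02) under quantile normalization. Dropping the filter does not enter gene values or list medians. The proteasome kept 20 of 31 subunits at 2-fold with 32 added and 2 at 3-fold.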

Other observations

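Chosen after the values were seen, 4 olfactory receptor genes that follow each other on chromosome 17 in GRCm38.p6 were lower with heme in the labelled knockout pair. Olfr111 read 288 in vehicle and 111 with heme (wild type 276 and 102). Olfr112 read 55.6 and 26.5 (wild type 59.5 and 22.5), and Olfr113 134 and 41.7 (wild type 87.2 and 65.6). Olfr114 read 38.5 and 16.6 (wild type 73.9 and 30.9), 1.45-fold lower with 32 added. Their neighbour Olfr110 read 51.2 and 31.1 (wild type 54.5 and 32.7), while Olfr109 was at 29.1 and 35.4 (wild type 41.0 and 38.0). Both heme arrays were below both vehicle arrays in all of them but Olfr109. Whether probes of these similar receptor genes share signal was not tested.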
